A study of Mus musculus with 9 samples.

Results

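The regions described here are stretches of the mouse genome in which a Stat5 peak was listed at every stage examined, by at least 1 of the 2 antibodies each time, without being listed in every library. The 6 deposited peak lists (8 h, 13 h and 2 rounds of Th2 differentiation, each for Stat5b and Stat5a) were joined wherever peaks shared at least 1 bp, with the mitochondrial chromosome left out. Of the 43766 merged regions obtained, 2607 (5.96%) had a peak in a list of each stage but were missing from at least 1 list. They are called 3-stage regions below. Another 1152 regions (2.63%) were in all 6 lists, 7324 had peaks at both later stages but none at 8 h, and 515 had peaks at both earlier stages but none after 2 rounds. These 3 sets serve as comparison. Because the 3-stage regions were chosen by the positions of the listed peaks, the levels of Stat5a and Stat5b in them are descriptions and carry no test.

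Chromatin of mouse CD4+ T cells was immunoprecipitated with a Stat5b antibody, a Stat5a antibody or control IgG, and the recovered DNA was sequenced (ChIP-seq). Each antibody was used on cells of 3 stages of Th2 differentiation, namely 8 h, 13 h and 2 rounds, so the series holds 9 libraries, 1 per antibody and stage. The labels give no strain, age, sex or genotype for the animals, and the culture and cytokine treatment only through a publication not used here. There were no replicates, so every ratio compares a pair of libraries and not the conditions themselves.

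Stat5a and Stat5b are closely related transcription factors that are phosphorylated by Janus kinases after cytokines such as IL-2 bind their receptors. They then pair up, enter the nucleus and bind palindromic GAS elements in promoters and enhancers. In CD4+ T cells Stat5 activity is known for its part in the response to IL-2, in survival and proliferation, and in opening the IL-4 locus during differentiation into Th2 cells, the helper cells that make IL-4, IL-5 and IL-13. In bulk chromatin, more cells with bound factor and more binding per cell cannot be told apart.

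The unit of level is RPM, the reads in a region per 1000000 of all those mapped in a library, with a read assigned to a region by its 5' end. Libraries held between 3130228 reads (Stat5a at 8 h) and 9036070 reads (Stat5b at 13 h), and between 61.0% and 74.1% of the reads of a library differed in start or strand. Each ratio between libraries has an exact conditional interval of 95% (Clopper-Pearson), and a region is called higher or lower when its whole interval lies above 2 or below 0.5. Intervals cover counting error only, since reads carried no molecular identifiers and can be copies of a molecule. Positions are in the mm8 build, 1-based. No gene annotation or genome sequence of that build was used here, so regions are named by position, without neighbouring genes and without their sequence.

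The 3-stage regions differed in how many lists they missed. Peaks came from 5 lists in 1152 regions (44.2%), from 4 lists in 906 (34.8%) and from 3 lists in 549 (21.1%). The Stat5b 2 rounds list covered 2549 of them (97.8%) and the Stat5b 13 h list 2397 (91.9%). The Stat5a 8 h list covered 2121 (81.4%), the Stat5a 13 h list 1802 (69.1%) and the Stat5a 2 rounds list 1288 (49.4%). The Stat5b 8 h list covered only 874 (33.5%), and it was also the shortest list, with 3970 peaks of median width 95 bp, against 33692 peaks of median width 562 bp in the Stat5b 2 rounds list.

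The antibody that supplied the peak therefore differed between stages. At 8 h, 388 regions were in the lists of both antibodies, 486 in the Stat5b list alone and 1733 in the Stat5a list alone. At 13 h the same counts were 1592, 805 and 210, and after 2 rounds they were 1230, 1319 and 58. A Stat5b peak was present at every stage in 768 regions (29.5%) and a Stat5a peak at every stage in 816 (31.3%). In the remaining 1023 regions (39.2%) neither factor had peaks at all 3 stages, and the 3 stages were covered only by taking the antibodies together. Only 119 regions had Stat5b peaks at each stage and no Stat5a peak, and only 4 had Stat5a peaks at each stage and no Stat5b peak.

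The lists combined in 25 ways. The most frequent combination, with 727 regions (27.9%), lacked nothing but a Stat5b peak at 8 h. Next came 356 regions without Stat5b at 8 h and Stat5a after 2 rounds, 286 regions also without Stat5a at 13 h, and 212 regions without Stat5b at 8 h and Stat5a at 13 h. In contrast to the 727, only 10 regions lacked nothing but Stat5b at 13 h and 22 nothing but Stat5b after 2 rounds. When the Stat5b 8 h list was left out altogether, an alternative chosen after seeing the data, 1394 regions met the rule with the other 5 lists. The 727 regions drop out there because they are in all of the other 5 lists. Only the 486 regions listed at 8 h by Stat5b alone lose their 8 h peak.

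**Figure D1:**
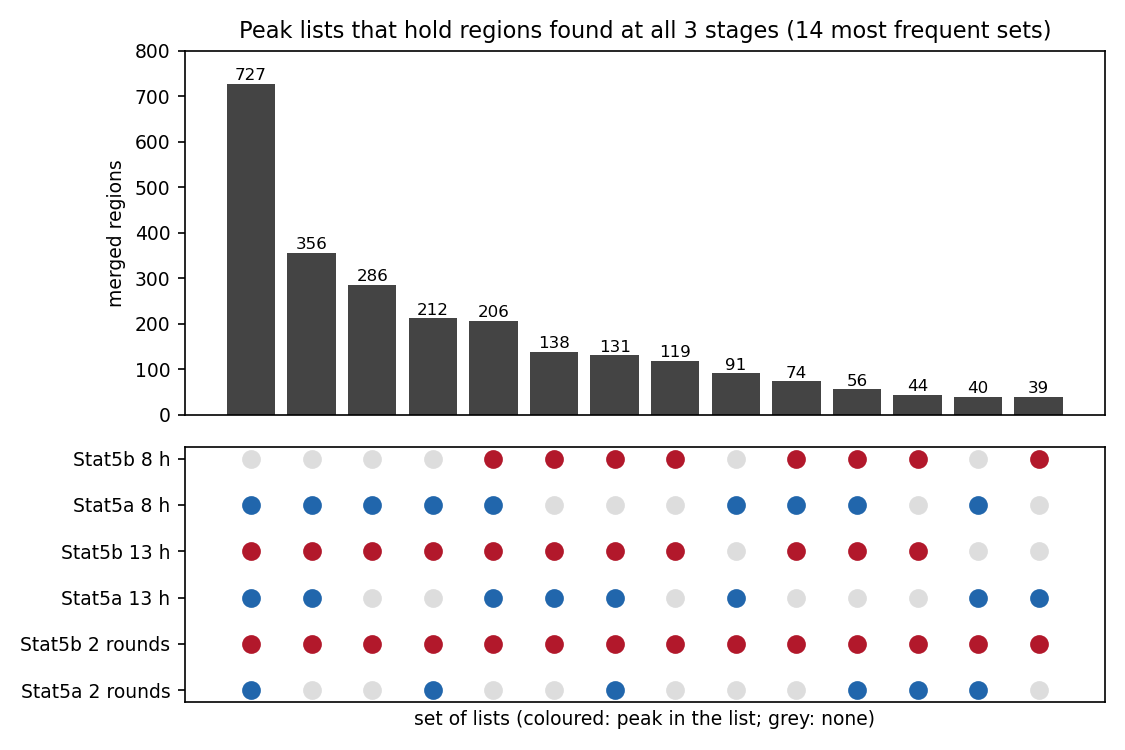
Number of 3-stage regions (bars, vertical axis) for the 14 most frequent combinations of peak lists, with the lists of each combination marked below by coloured dots (red for Stat5b, blue for Stat5a, grey for no peak). The tallest bar, 727 regions, has a peak in every list but Stat5b at 8 h, and the first 4 bars all lack that list.

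The 3-stage regions were wider than the typical merged region. Their median width was 780 bp, with quartiles of 623 and 1012.5 bp and extremes of 192 and 3721 bp, against 984 bp in regions of all 6 lists and 488 bp over all regions. They covered 2.24 Mb. Width is tied to the rule, because joining peaks of several lists widens a region. In 2520 regions (96.7%) there was a stretch covered by a peak of each of the 3 stages, of median length 262.5 bp. In 2398 (92.0%) a stretch was covered by a peak of every list the region was in, of median length 196.5 bp. Thus only 87 regions joined peaks of different stages that did not meet at any position. In 734 regions (28.2%) at least 1 list contributed more than 1 peak, up to 5.

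The overlap threshold mattered little. With more than 10 bp of overlap required, 2610 regions met the rule, of which 2581 had the same span, and with gaps under 10 bp bridged 2611 did. The 26 regions that rest on an overlap of 10 bp or less had median levels of 2.77, 6.70 and 11.6 RPM for Stat5b and 7.19, 4.87 and 5.72 RPM for Stat5a at 8 h, 13 h and 2 rounds. The 7 regions that would come in by bridging gaps had medians of 2.62, 4.65 and 6.53 RPM for Stat5b and 5.75, 3.01 and 2.41 RPM for Stat5a at these stages.

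Stat5b reads in the 3-stage regions were highest after 2 rounds and Stat5a reads at 8 h. The median Stat5b level was 2.04 RPM at 8 h, 4.32 RPM at 13 h and 7.71 RPM after 2 rounds. The median Stat5a level was 4.47, 2.89 and 3.46 RPM at the same stages, and the median IgG level 0.641, 0.797 and 0.864 RPM. In reads, the Stat5b medians were 14, 39 and 59 and the Stat5a medians 14, 24 and 23, so single regions at 8 h rest on few reads. Regions of all 6 lists had higher medians in every ChIP library, with 4.37, 9.85 and 17.8 RPM for Stat5b and 9.58, 6.497 and 9.03 RPM for Stat5a. Per kb of region, the medians were 2.41, 5.31 and 9.23 RPM for Stat5b and 5.52, 3.62 and 4.26 RPM for Stat5a in 3-stage regions, against 4.25, 9.555 and 17.5 RPM for Stat5b and 9.13, 6.41 and 8.805 RPM for Stat5a in regions of all 6 lists. Levels also followed the number of lists. For Stat5b after 2 rounds the median was 5.75 RPM in regions of 3 lists, 6.92 RPM in regions of 4 and 10.6 RPM in regions of 5.

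The interval of Stat5b over IgG lay above 2 in 297 regions (11.4%) at 8 h, in 1586 (60.8%) at 13 h and in 2115 (81.1%) after 2 rounds. Across the merged regions as a whole these shares were 2.92%, 17.5% and 46.5%. Stat5a over IgG lay above 2 in 1396 regions (53.5%) at 8 h, 865 (33.2%) at 13 h and 864 (33.1%) after 2 rounds, against 11.2%, 13.9% and 13.9% of all regions. The order of the libraries depends on the reads and the scaling. With 25 bp reads alone Stat5b over IgG lay above 2 in 11.4%, 45.8% and 38.3%, and Stat5a over IgG at 8 h in 53.5%. The 8 h libraries hold only 25 bp reads, so their shares cannot change. With the median-ratio scaling Stat5b over IgG after 2 rounds was at 3.95% and Stat5a over IgG at 8 h at 6.79%. This scaling divides each ratio by the median ratio to IgG over the merged peak regions. It removes the excess that peaks share, so lower shares follow from the scaling itself. The shares of all regions were not computed under these alternatives. The same peak lists chose the regions, so these excesses are no evidence of their own.

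Regions missing from a list held fewer reads of that library than listed ones by their medians, and more than IgG. Some held none: Stat5b had 0 reads in 2 of the 3-stage regions at 8 h and in 0 of them later, and Stat5a had 0 reads in 11 of them in the 8 h library, 2 in the 13 h library and 5 in the 2 rounds library. Where the Stat5b 8 h list had a peak, the median Stat5b level was 2.62 RPM, and where it had none, it was 1.60 RPM, with 0.641 RPM of IgG in the regions without a peak. For Stat5a at 8 h the medians were 4.79 RPM with a peak and 2.24 RPM without, with 0.801 RPM of IgG in the regions without. At 13 h, Stat5b medians were 4.43 RPM with a peak and 2.10 RPM without, and Stat5a medians 3.49 RPM with and 2.05 RPM without. After 2 rounds, Stat5b medians were 7.84 RPM with a peak and 3.004 RPM without, and Stat5a medians 5.42 RPM with and 2.26 RPM without. IgG medians in regions without a Stat5b or Stat5a peak were 0.664 and 0.797 RPM at 13 h, and 1.04 RPM for both after 2 rounds. Summed over the 58 regions without a Stat5b 2 rounds peak, however, Stat5b was at 0.540 times IgG (0.526 to 0.555). In the other sets without a peak the summed ratio to IgG was between 1.53 and 2.55. For Stat5b at 8 h, the summed ratio was lower with a peak, at 1.498 (1.47 to 1.527), than without, at 2.339 (2.28 to 2.398). On distinct starts these ratios were 2.25 and 2.524. For every other list the summed ratio was larger with a peak. Region by region, the Stat5b to IgG interval at 8 h lay above 1 in 65.33% with a peak and 33.47% without.

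Expressed as intervals, 33.5% of the 1733 regions without a Stat5b peak at 8 h had a Stat5b to IgG ratio whose interval lay above 1. Among all other merged regions without that peak the share was 6.49%, and over all merged regions, with a peak or without, it was 12.1%. For Stat5a at 8 h the share was 42.2% of the 486 regions without a peak, against 13.3% of other regions without one and 23.2% of all. At 13 h it was 59.1% of 210 regions for Stat5b, against 18.0% of others without the peak and 38.8% of all, and 44.6% of 805 regions for Stat5a, against 15.5% and 37.4%. After 2 rounds it was 31.0% of 58 regions for Stat5b, against 9.52% of others without the peak and 71.5% of all, and 40.6% of 1319 regions for Stat5a, against 16.4% and 32.7%. The 3-stage regions are also wider than the others, and the part of width in these differences was not tested.

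**Figure D2:**
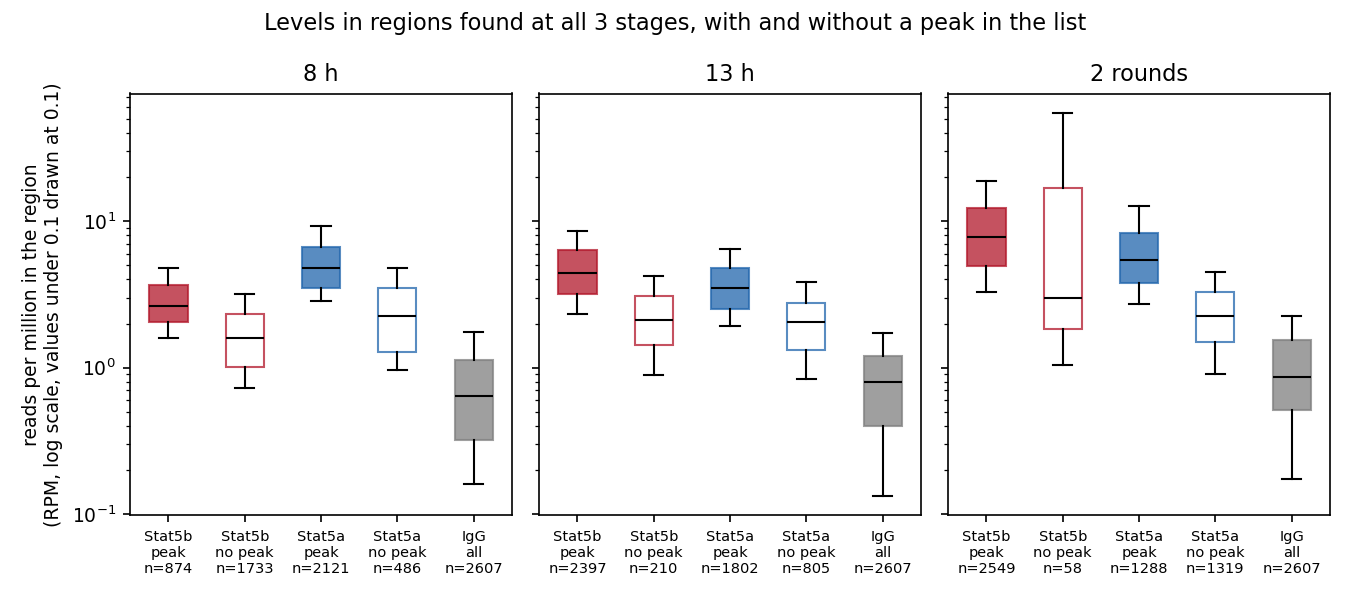
RPM in 3-stage regions (vertical axis, log scale, values under 0.1 drawn at 0.1) at 8 h, 13 h and 2 rounds, for regions with a peak (filled boxes) and without a peak (open boxes) in the list of that library, and for IgG in all 2607 regions. Boxes span the quartiles with the median as a line and whiskers the 10th to 90th percentile; the open boxes sit below the filled ones and above IgG by their medians, and the widest box, Stat5b without a peak after 2 rounds, holds 58 regions of which 21 exceeded 5 RPM in IgG.

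The listed peaks that chose the regions mark where reads pile up, so the position of reads within a region is a description for any library with a peak there. For a library without a peak in the region, the rule did not use where its reads lie. The point of highest Stat5b density after 2 rounds, the summit, was taken as a reference in the 2523 regions that had a Stat5b 2 rounds peak and at most 5 RPM of IgG at every stage. Of the distinct starts within 500 bp of the summit, moved 75 bp downstream, the share within 100 bp was counted. An even spread would give 20%, and IgG gave 28.3%, 27.8% and 27.1% at 8 h, 13 h and 2 rounds.

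In libraries whose list lacked a peak in the region, reads still lay near that summit. For Stat5b at 8 h, 40.5% of starts in the 1708 regions without a peak were within 100 bp of it (Wilson 95% interval 39.8 to 41.3), against 27.2% (26.1 to 28.4) of IgG starts in the same regions. For Stat5a at 8 h the share was 41.1% (39.1 to 43.0) in 473 regions, against 29.6% (27.5 to 31.8) of IgG starts. At 13 h, 37.2% (35.3 to 39.2) of Stat5b starts in 194 regions without a peak were near the summit, against 27.7% (24.8 to 30.8) of IgG starts. For Stat5a without a peak it was 37.0% in 785 regions at 13 h, against 27.5% of IgG starts, and 37.0% in 1298 regions after 2 rounds, against 27.3%. In each of these 5 cases the interval of the ChIP library lay wholly above that of IgG. These intervals pool starts over regions and treat each start as independent. Variation between regions and between libraries is therefore not covered, and the difference was not tested.

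Regions with a peak in the list had a larger share near the summit, between 48.7% (Stat5b at 13 h and at 8 h) and 53.0% (Stat5a after 2 rounds) apart from the library that defined the summit. The 7231 such regions with peaks at both later stages but none at 8 h gave 35.2% (34.8 to 35.6) of Stat5b starts and 37.7% (37.2 to 38.3) of Stat5a starts at 8 h, against 26.9% (26.4 to 27.4) of IgG starts. The 3-stage regions without an 8 h peak of 1 antibody have one of the other by the rule, so their larger shares of 8 h reads near the summit are a description.

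The summits of the libraries themselves were close together. Where a library had at least 10 starts and a peak, its own summit lay at a median of between 33 bp (Stat5a after 2 rounds) and 51 bp (Stat5a at 8 h) from the Stat5b 2 rounds summit. Without a peak the median was between 64 bp (Stat5b at 13 h) and 84 bp (Stat5a at 8 h and after 2 rounds), and for IgG between 127 and 225 bp. For IgG at most 210 regions had 10 starts, and for Stat5a at 8 h without a peak only 47 had. The limit on IgG used above was not applied to these distances.

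**Figure D3:**
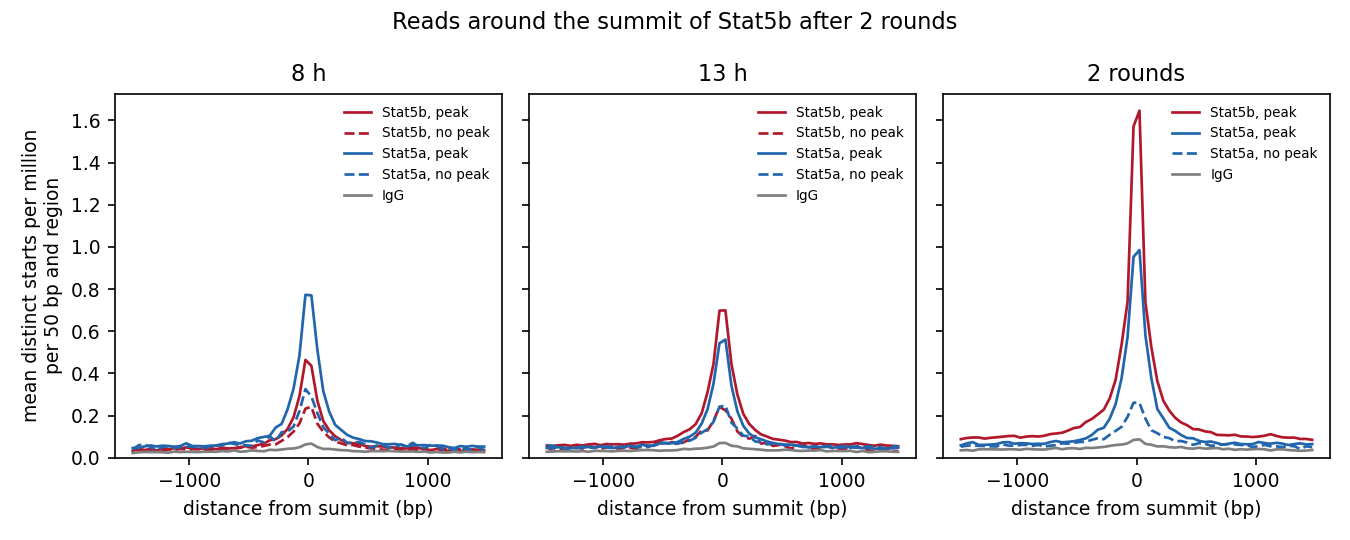
Mean number of distinct read starts per 1000000 distinct starts of the library (vertical axis, per 50 bp and region) against the distance in bp from the Stat5b 2 rounds summit (horizontal axis) at 8 h, 13 h and 2 rounds, in 2523 of the 3-stage regions. Solid coloured lines are regions with a peak in the list of that library, dashed lines regions without, and grey is IgG; the dashed lines rise at the summit at each stage, and the density at the centre was between 3.97 and 5.47 times that at the edge without a peak, against between 2.01 and 2.16 times for IgG.

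Reads of a bound site lie on its upstream side on the forward strand and on its downstream side on the reverse strand. Strand is no part of the rule, though whether the peak caller used it is not given. Among the 2560 regions with at most 5 RPM of IgG at every stage, those with at least 5 distinct starts on each strand were measured. The median distance of reverse starts beyond forward starts was 89.8, 114 and 128 bp for Stat5b at 8 h, 13 h and 2 rounds, and 100, 104 and 105 bp for Stat5a. For IgG it was 11.2, 10.8 and 11.0 bp. Reverse starts lay downstream in 78.8%, 90.4% and 93.7% of regions for Stat5b and in 80.9%, 85.8% and 85.3% for Stat5a. For IgG it was 54.5%, 51.1% and 50.6%, in only 44, 90 and 87 regions with enough starts. Forward and reverse starts overlapped best at a distance of 92, 96 and 135 bp for Stat5b. This best distance was 95, 115 and 111 bp for Stat5a and 22, 118 and 26 bp for IgG. Over all 2607 regions it was 125 bp for Stat5b after 2 rounds and between 24 and 27 bp in the other libraries, IgG included. In regions of all 6 lists, under the same IgG limit, the median distance for IgG was 64.0, 111.5 and -2.0 bp.

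Stat5b was higher at 13 h than at 8 h, and the median over the 3-stage regions moved with it. The interval of Stat5b 13 h over 8 h lay above 2 in 338 regions (13.0%) and below 0.5 in 0, against 5.27% and 0.304% of all merged regions. The median ratio was 2.22 in the 2605 regions with reads in both libraries, or 1.15 on the log2 scale, against 1.90 over all merged regions with reads in both. By RPM alone, 2444 regions (93.8%) had more Stat5b at 13 h, against 72.8% of all. Of the 338 regions, 316 had a Stat5b peak at 13 h and none at 8 h, which the lists imply. With each start and strand counted once, 119 regions were higher, against 1.13% of all. Scaled by the median ratio over all merged regions, a shift of 0.93 on the log2 scale, 29 regions were higher and 5 lower. Calls over all merged regions were not counted with this scaling.

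Stat5a did not follow Stat5b over the same interval of time. Stat5a 13 h over 8 h was called higher in 4 regions and lower in 86 (3.30%), against 0.286% and 2.15% of all regions. The median ratio was 0.686, or -0.54 on the log2 scale, against 0.869 over all merged regions with reads in both. By RPM, 622 regions (23.9%) had more Stat5a at 13 h, against 56.0% of all. Of the 86 lower regions, 63 had a Stat5a peak at 8 h and none at 13 h, and 22 had a peak at both. With each start and strand once, 0 were higher and 10 lower, against 0.00685% and 0.555% of all. With the median-ratio scaling 9 were higher and 41 lower, a share of higher calls of 18.0% in place of 4.44%. That scaling was not counted over all merged regions. The Stat5a 8 h library was the least deep of the 9, and the part of depth and of repeated starts in this difference was not tested.

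The change in Stat5b was set against the change in Stat5a region by region, as a ratio of ratios with its exact conditional interval. The ratio of ratios lay wholly above 2 in 660 regions (25.3%) and wholly below 0.5 in 0, against 6.39% and 0.336% of all merged regions. It lay above 2 in 34.3% of the regions in all 6 lists, in 24.9% of those with peaks at both earlier stages only and in 6.40% of those with peaks at both later stages only. The share was thus as high without a 2 rounds peak, and low without an 8 h peak. The rule admitted 1733 of the 3-stage regions at 8 h by a Stat5a peak alone, so these 8 h values are part of what chose the regions. With each start and strand once it was 199 regions, against 1.41% of all. By RPM, Stat5b was up and Stat5a was not in 1876 regions (72.0%), against 34.2% of all merged regions. IgG 13 h over 8 h, measured in the same way, was called higher in 14 regions and lower in 6, against 0.254% and 0.462% of all regions, with a median ratio of 1.11.

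For the step to 2 rounds, Stat5b 2 rounds over 13 h was called higher in 456 regions (17.5%) and lower in 2, against 25.1% and 0.637% of all regions, so the share in the 3-stage regions was below the background. Its median ratio was 1.86, against 2.58 over all merged regions with reads in both libraries. This split depends on the scaling. With the median-ratio scaling, a shift of 1.37 on the log2 scale, 23 regions were higher and 209 lower. Shares of all merged regions were not computed with that scaling, so these counts have no background beside them.

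Stat5a 2 rounds over 13 h was higher in 155 regions (5.95%) and lower in 20 (0.767%), against 7.67% and 3.97% of all regions, with a median ratio of 1.18, against 1.25 over all merged regions. The excess of higher calls depends on the reads used. With 25 bp reads alone, 79 regions were higher and 76 lower, and 54.5% of the reads of the Stat5a 2 rounds library are 24 bp long. With the median-ratio scaling, a shift of 0.32, 85 were higher and 44 lower. Neither alternative was counted over all merged regions. IgG 2 rounds over 13 h was higher in 35 regions and lower in 4, against 0.644% and 0.0914% of all regions, with a median ratio of 1.3. The 2 antibodies were called higher together in 112 regions (4.30%), close to the 4.76% of all merged regions. In 0 regions was 1 higher and the other lower, which over all merged regions held for 0.064% with Stat5b higher and 0.00457% with Stat5a higher.

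**Figure D4:**
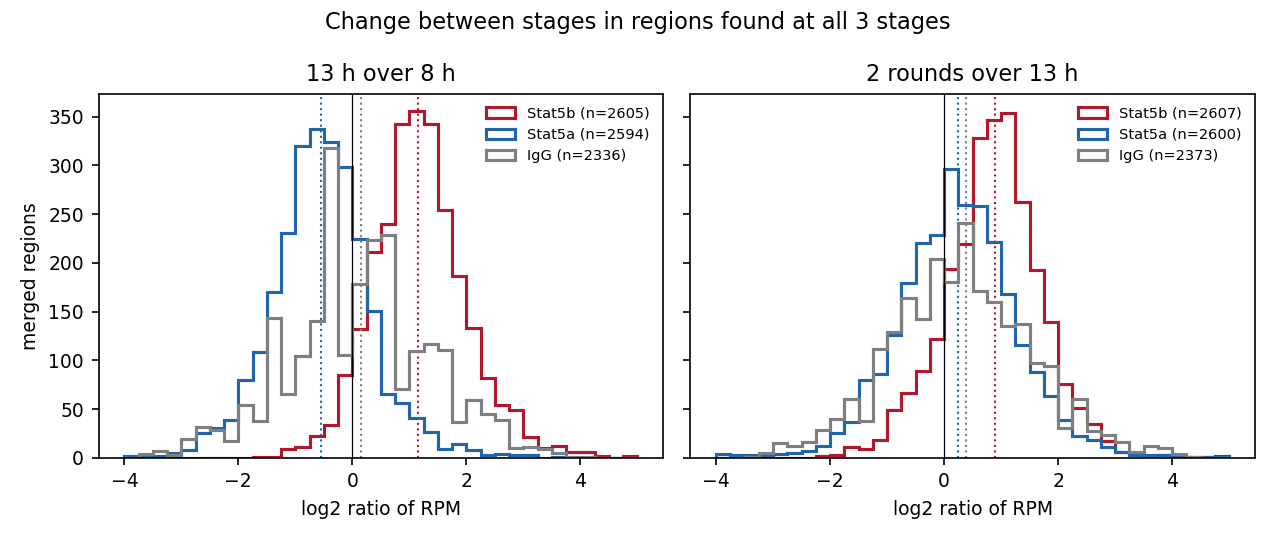
Number of 3-stage regions (vertical axis) by the log2 ratio of RPM between stages (horizontal axis), 13 h over 8 h on the left and 2 rounds over 13 h on the right, for Stat5b (red), Stat5a (blue) and IgG (grey), with dotted lines at the medians and n the regions with reads in both libraries. In the left panel the Stat5b median is 1.15 and the Stat5a median -0.54; in the right panel the medians are 0.90 for Stat5b and 0.24 for Stat5a.

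Over the whole course, Stat5b 2 rounds over 8 h was called higher in 1421 regions (54.5%) and lower in 0, against 43.4% and 0.215% of all regions, with a median ratio of 3.995, below the 4.82 of all merged regions with reads in both libraries. Counting each start and strand once gave 1103 higher, against 31.0% of all. Stat5a 2 rounds over 8 h was higher in 59 regions and lower in 122, against 3.73% and 1.91% of all regions, with a median ratio of 0.811, against 1.10 over all merged regions. Stat5b was called higher in both steps in 76 regions (2.92%, against 0.784% of all merged regions), in the first step alone in 262 (10.1%, against 4.28%) and in the second alone in 380 (14.6%, against 24.3%). In 1122 regions (43.0%, against 49.4%) Stat5b was called in none of the 3 comparisons, and in 2256 (86.5%, against 84.1%) Stat5a was called in none.

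The stage with the highest RPM differed between the antibodies. For Stat5b it was 8 h in 27 regions (1.04%), 13 h in 356 (13.7%) and 2 rounds in 2224 (85.3%). For Stat5a it was 8 h in 1427 regions (54.7%), 13 h in 322 (12.4%) and 2 rounds in 858 (32.9%). Over all merged regions 8 h was the highest stage for Stat5a in 25% and 2 rounds for Stat5b in 77.9%. For IgG it was 8 h in 23.3% of the 3-stage regions, 13 h in 29.9% and 2 rounds in 46.8%.

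Individual regions show these courses, with more reads than the median region in some libraries and fewer in others. Those given here follow a rule on rank by RPM above IgG or by ratio. The region chr4:95199551-95200746 came next to the top by ratio of 2 rounds over 13 h for both antibodies. It held 0.874, 1.77 and 63.5 RPM of Stat5b at 8 h, 13 h and 2 rounds (6, 16 and 486 reads), 3.83, 1.08 and 25.7 RPM of Stat5a (12, 9 and 171 reads) and 0.801, 0.797 and 0.864 RPM of IgG. Stat5b 2 rounds over 13 h was 35.9 (95% interval 21.9 to 63.2) and Stat5a 23.8 (12.2 to 52.9). Both antibodies were close to IgG at 13 h and far above it after 2 rounds, although the Stat5b 13 h list includes the region.

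The region chr9:74733089-74734482 had a like course. Stat5b was at 0.874, 1.66 and 43.4 RPM, Stat5a at 3.83, 1.203 and 22.7 RPM and IgG at 0.160, 0.797 and 1.90 RPM. Stat5b 2 rounds over 13 h was 26.1 (15.6 to 47.2) and Stat5a 18.9 (9.99 to 40.2). In chr10:92081178-92082125 the antibodies ran side by side from 13 h on. Stat5b was at 0.874, 4.54 and 57.1 RPM, Stat5a at 3.20, 4.33 and 61.5 RPM and IgG at 0.641, 0.664 and 1.56 RPM.

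The region chr15:9814549-9815736 ranked high both at 13 h and after 2 rounds, and led the 727 regions that lack only Stat5b at 8 h. Stat5b was at 1.89, 15.3 and 72.4 RPM, Stat5a at 8.63, 14.9 and 27.5 RPM and IgG at 1.44, 1.46 and 3.46 RPM. Stat5b stood at 1.31 times IgG at 8 h (0.519 to 3.48), an interval that includes 1, and at 20.9 times IgG after 2 rounds (13.4 to 34.6). Stat5b went up at both steps, 8.07-fold (4.57 to 15.5) and 4.74-fold (3.93 to 5.75). Stat5a was already at 5.98 times IgG at 8 h (2.73 to 14.5).

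After 2 rounds the region with the most RPM above IgG was chr2:180177174-180179391, with 87.2 RPM of Stat5b and 39.3 RPM of Stat5a against 1.56 RPM of IgG. At 8 h it had held 5.83 RPM of Stat5b and 3.51 RPM of Stat5a, and at 13 h 12.6 and 7.70 RPM. In chr1:132706649-132708567 Stat5b was at 2.33, 12.2 and 78.2 RPM, Stat5a at 4.47, 11.6 and 26.5 RPM and IgG at 2.40, 1.33 and 2.77 RPM, so at 8 h Stat5b did not stand above IgG. Stat5b spanned a wide range in chr16:10781981-10782845, with 0.146, 3.98 and 70.4 RPM (1, 36 and 539 reads). Stat5a there was at 2.56, 2.89 and 17.5 RPM and IgG at 0.641, 1.196 and 0.864 RPM. Its Stat5b ratio of 13 h over 8 h was 27.4, with a wide interval (4.61 to 1110) since the 8 h library had 1 read.

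The earliest stage stood out in another set of regions, mostly for Stat5a. In chr2:8882506-8883617 Stat5a was at 25.9, 9.99 and 5.12 RPM (81, 83 and 34 reads), Stat5b at 6.70, 10.4 and 13.6 RPM and IgG at 1.92, 1.86 and 1.90 RPM. By RPM the antibodies ran in opposite directions over the stages. Stat5a 2 rounds over 8 h was 0.198 (0.128 to 0.299), which is called lower, while Stat5b 2 rounds over 8 h was not called. In chr3:131189031-131190543 Stat5a was at 14.4, 6.38 and 0.451 RPM (45, 53 and 3 reads), Stat5b at 3.64, 12.4 and 5.49 RPM and IgG at 0.481, 0.930 and 0.691 RPM. Stat5a 2 rounds over 13 h was 0.0708 (0.0142 to 0.218), and after 2 rounds Stat5a did not stand above IgG (0.653, 0.0957 to 3.86).

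In chr11:103081527-103082119 Stat5a was at 12.8, 2.17 and 3.31 RPM, Stat5b at 2.91, 5.09 and 1.70 RPM and IgG at 0.641, 0.930 and 0.691 RPM. Stat5a 13 h over 8 h was 0.170 (0.0915 to 0.303) and was no longer called with each start and strand counted once. Stat5a also had its highest level at 8 h in chr4:32703364-32704403, with 16.3, 2.04 and 4.97 RPM, where the ratio of 13 h over 8 h was 0.126 (0.0680 to 0.221) and also not called on distinct starts. In chr6:142874374-142875209, with 9.58, 1.68 and 3.16 RPM of Stat5a, the ratio of 0.176 (0.0861 to 0.342) was still called on distinct starts.

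Among the named regions in which Stat5b was highest at 13 h, 3 more are described next. The region chr14:113921057-113922968 held 8.01, 19.7 and 11.9 RPM of Stat5b, 18.5, 13.0 and 7.22 RPM of Stat5a and 1.60, 1.06 and 2.07 RPM of IgG. Stat5a there was highest at 8 h. The region was in every list but Stat5a after 2 rounds. The 2 regions called lower for Stat5b after 2 rounds were chr4:6861054-6861574 and chr8:75206209-75206716. The first held 4.51, 5.76 and 1.44 RPM of Stat5b, and the second 4.22, 8.74 and 2.61 RPM. Their ratios of 2 rounds over 13 h were 0.250 (0.118 to 0.484) and 0.299 (0.173 to 0.493), and neither was called with each start and strand counted once.

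**Figure D5:**
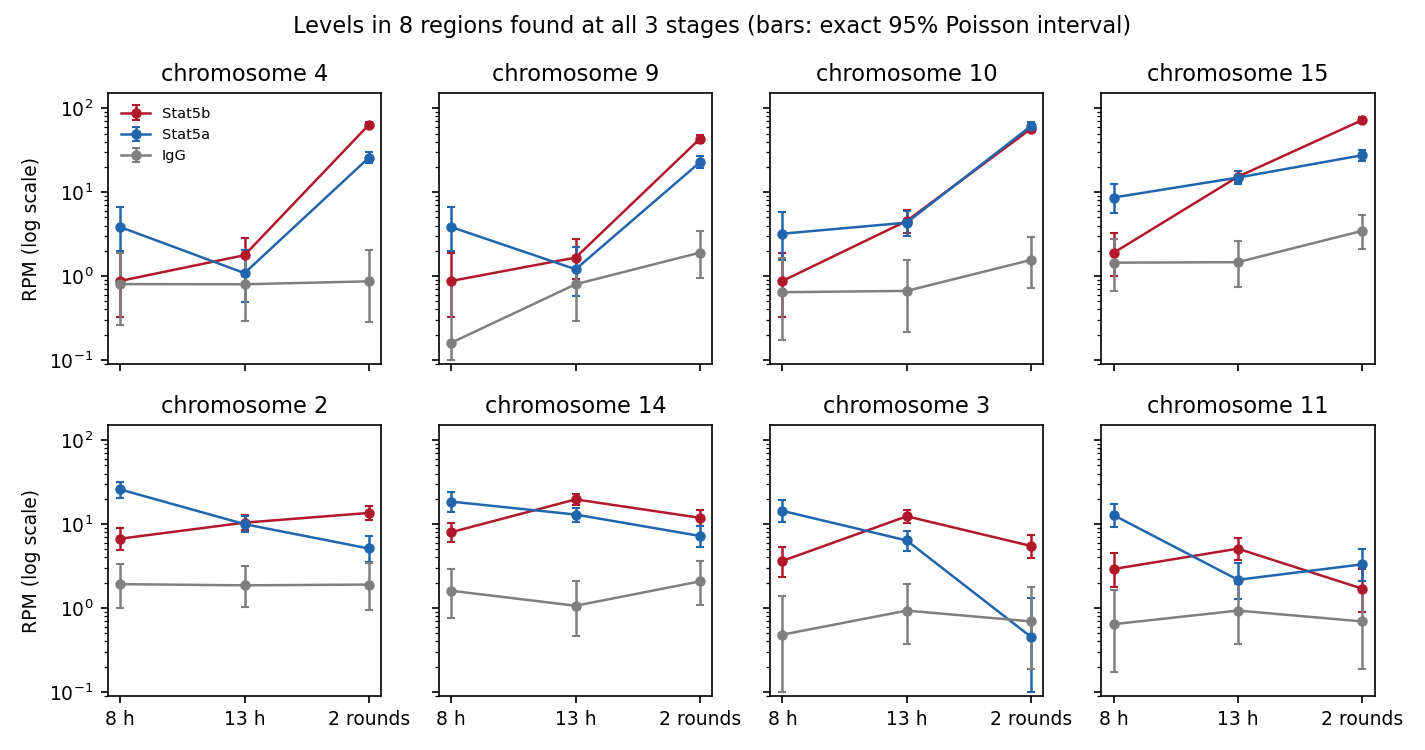
RPM (vertical axis, log scale) at 8 h, 13 h and 2 rounds in 8 of the named regions, with Stat5b in red, Stat5a in blue and IgG in grey and bars for the exact Poisson 95% interval of the count, drawn down to 0.1 where they reach lower. In the upper row, the regions of chromosomes 4, 9, 10 and 15, both antibodies are highest after 2 rounds. In those of chromosomes 4 and 9 Stat5a is lower at 13 h than at 8 h. In the lower row Stat5a is highest at 8 h in the regions of chromosomes 2, 14, 3 and 11.

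The ratio of the antibodies within a stage moved across the course. It compares a pair of antibodies of unknown strength, so it is a ratio of libraries and not of amounts of protein. Stat5b over Stat5a was called higher in 2 regions and lower in 313 (12%) at 8 h, with a median ratio of 0.424, against 0.048% and 3.8% of all regions. At 13 h it was higher in 43 (1.65%) and lower in 2, with a median ratio of 1.47, against 2.07% and 5.33% of all regions. After 2 rounds it was higher in 585 (22.4%) and lower in 1, with a median ratio of 2.29, against 17.2% and 0.487% of all regions. The split at 2 rounds turned with the median-ratio scaling, a shift of 1.28 on the log2 scale, to 10 higher and 87 lower. At 8 h that scaling gave 18 higher and 21 lower, and at 13 h 14 higher and 6 lower. Its calls over all merged regions were not counted. Of the 313 lower regions at 8 h, 301 had a Stat5a peak and no Stat5b peak, and of the 585 higher regions after 2 rounds, 381 had a Stat5b peak and no Stat5a peak.

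Some regions were covered by 1 antibody where the other was at or near 0 reads. In chr15:5430370-5430964 Stat5b had 0 reads at 8 h, 3.76 RPM at 13 h and 6.92 RPM after 2 rounds, and Stat5a 4.47, 2.89 and 5.87 RPM. The exact interval of the Stat5b ratio of 13 h over 8 h starts at 6.63 and has no upper limit. In chr12:103029093-103029735, listed by Stat5b alone, Stat5b was at 1.89, 5.53 and 7.84 RPM and Stat5a at 1.28, 0.120 and 1.81 RPM. Stat5b over Stat5a at 13 h was 46.0 there (7.88 to 1852), with 50 reads against 1. In chr14:19165471-19166432 Stat5a was at 4.47, 2.65 and 9.78 RPM, while Stat5b was at 0.291, 0.443 and 22.6 RPM, below or near IgG (0.801 and 0.532 RPM) at 8 h and 13 h. Stat5b 2 rounds over 13 h was 51.0 there (19.6 to 189).

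Ranked by RPM above IgG, the 3-stage regions sat below those of all 6 lists. Among the 100 highest merged regions 3 were 3-stage regions at 8 h, 0 at 13 h and 10 after 2 rounds, while regions of all 6 lists numbered 91, 100 and 85. Among the 1000 highest they numbered 235, 219 and 198, and regions of all 6 lists 725, 722 and 541. Across regions, the Spearman correlation of Stat5b with Stat5a was 0.329 at 8 h, 0.682 at 13 h and 0.714 after 2 rounds, and 0.760, 0.867 and 0.815 across the 1152 regions of all 6 lists. These correlations are over regions within pairs of libraries, which share width and mappability, so they are descriptions with no p-value. At 8 h the median region had 14 reads of either antibody, and the part of counting noise in the lower value was not tested.

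A small set of the 3-stage regions had many reads in IgG, against their name as Stat5 regions. IgG exceeded 5 RPM at some stage in 47 of the 2607, and these held 50.7%, 53.1% and 47.7% of all IgG reads of the 3-stage regions at 8 h, 13 h and 2 rounds. Their part of the Stat5b reads was 23.95%, 16.3% and 6.23%, and of the Stat5a reads 14.7%, 19.8% and 14.02%. IgG was at least as high as both ChIP libraries in 28 regions at 8 h, 20 at 13 h and 21 after 2 rounds. Among the 58 regions without a Stat5b 2 rounds peak, 21 belonged to the 47, as did 21 of the 1319 without a Stat5a 2 rounds peak.

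The highest was chr2:98465641-98466143. It held 378, 391 and 228 RPM of Stat5b, 358, 341 and 341 RPM of Stat5a and 367, 457 and 509 RPM of IgG. The region chr14:39187412-39187916, first by RPM above IgG at 8 h, held 223 RPM of Stat5b and 269 RPM of Stat5a against 208 RPM of IgG at that stage, and 178 and 264 RPM against 336 RPM after 2 rounds. The region chr9:35054763-35055342, the next in rank at 8 h, held 129 and 179 RPM of Stat5b and Stat5a against 138 RPM of IgG. Such regions rank high by the difference in RPM while their ratio to IgG is close to 1, at 1.08 for Stat5b and 1.296 for Stat5a in chr14:39187412-39187916 at 8 h. Without the 47 regions, 2560 remained, and their median levels were 1.89, 4.21 and 7.71 RPM for Stat5b and 4.47, 2.89 and 3.46 RPM for Stat5a.

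Position along the chromosome was not used by the rule. Another merged region lay within 10 kb of 1973 of the 3-stage regions (75.7%), against 63.6% of all other merged regions and 87.5% of the regions in all 6 lists. A region of all 6 lists lay that near in 12.6%, against 5.88% of the others, and another 3-stage region in 18.8%, against 9.90%. At least 3 neighbours within 10 kb were found for 33.8%, against 20.8%, and the median gap to the nearest merged region was 2753 bp, against 5168 bp. The 515 regions with peaks at both earlier stages only were much alike, with 72.8% near any region, 18.8% near a 3-stage region and a median gap of 2790 bp, so this spacing is not particular to the 3-stage regions. The 3-stage regions were also wider than the others, and the part of width in this difference was not tested. Within 50 kb nearly every region had a neighbour, 96.6% of the 3-stage regions and 90.5% of the others.

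Joined at 10 kb, the 3-stage regions formed 2334 groups, of which 2116 were single regions and 39 held at least 3. The largest group, 9 regions at chr9:2999924-3032505, is part of the high-IgG set, with 309, 446 and 278 RPM of Stat5b against 382, 478 and 478 RPM of IgG. The next, 8 regions at chr9:32229838-32272181, held 17.2, 52.1 and 91.0 RPM of Stat5b, 47.0, 30.3 and 40.8 RPM of Stat5a and 5.61, 9.83 and 9.504 RPM of IgG. A group of 5 regions at chr1:182223705-182241047 held 11.4, 27.0 and 60.3 RPM of Stat5b, 28.1, 22.1 and 44.8 RPM of Stat5a and 6.89, 6.91 and 7.09 RPM of IgG. In both groups Stat5b was highest after 2 rounds, and Stat5a was lowest at 13 h.

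The 3-stage regions were spread over all autosomes and the X chromosome, and none was on the Y chromosome, which had 1 merged region. Chromosome 11 had the most, 212. Per 100 merged regions the number was highest on chromosome 16, at 8.21, and lowest on the X chromosome, at 4.37, against 5.96 over the genome.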

How the data were processed

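Per the deposited file names, reads and peaks of the 9 libraries are in mm8. How reads were aligned and how peaks were called, with what threshold and control, is not given in the sources used here. The deposited read files hold, per the authors' columns, the start, end and strand of each read in bp, and the deposited peak files the start and end of each peak, without scores, normalization or replicates. Reads of 25 bp and, in 4 libraries, 24 bp were counted by their 5' end, with 24 bp starts moved by 1 bp. Peaks were merged at 1 bp of overlap, and reads were scaled to library totals (RPM). No p-value was computed, as each group has 1 library. Library ratios carry exact conditional intervals at 95%, with a call above 2 or below 0.5, over all 43766 regions. The calls were checked on simulated counts that held counting error only. Repeated starts and variation between libraries were not simulated, so the check does not cover them.

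Named regions were the 6 with the most RPM above IgG per stage, up to 3 called regions per antibody, step and direction and up to 2 per antibody ratio, by size of ratio with at least 30 reads in the higher library, and the leading region of each of the 6 most frequent list combinations. The text gives examples. The regions, the comparisons and these rules were chosen with earlier results of these data known. Leaving out high-IgG regions and the Stat5b 8 h list were added after seeing the data. The strand distance and summit used distinct starts. A search for STAT motifs and nearby genes was not run, since no mm8 sequence or annotation was used here. Software was scipy 1.17.1, numpy 2.4.6, pandas 2.3.3 and matplotlib 3.10.9 under Python 3.11.15.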

Additional observations from a re-analysis of the deposited data

Results flagged for a closer look

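The change between 8 h and 13 h differed between the antibodies in the same regions. The median ratio of 13 h over 8 h was 2.22 for Stat5b in the 2605 regions with reads in both libraries and 0.686 for Stat5a in 2594 regions. The difference was measured region by region as a ratio of ratios, whose 95% interval lay above 2 in 660 of the 2607 regions (25.3%) and below 0.5 in 0, against 6.39% of all merged regions above 2. Over all merged regions with reads in both libraries the median ratios were 1.90 for Stat5b and 0.869 for Stat5a. At 8 h, 1733 of the 2607 regions were admitted by a Stat5a peak alone, so the 8 h values behind this direction are part of what the rule used. Each of the 4 libraries involved is unreplicated, and the Stat5a 8 h library is the least deep of the series. On distinct read starts, the interval lay above 2 in 199 regions, of which 192 are among the 660.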

How the results depend on the processing

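Of 154 results recomputed under alternatives, 93 stayed within their limits and 61 moved. Some of the 93 could not move. No 3-stage region had most of its reads on 1 start and strand, so the 9 results without such regions repeat the main ones. The 8 h libraries and all Stat5b libraries hold no 24 bp reads. Ratios among these libraries are therefore unchanged with 25 bp reads alone. All values are percents of 3-stage regions called unless said otherwise, and the cause of a move was not tested. Among the alternatives, shares of all merged regions were computed only with each start and strand counted once, and are given there. With the median-ratio scaling, which sets the median merged region at a ratio of 1, all 20 percents moved. Stat5b 13 h over 8 h was higher in 1.11% and lower in 0.192%, and 2 rounds over 13 h in 0.882% and 8.02%. Stat5a 13 h over 8 h was higher in 0.345% and lower in 1.57%, and 2 rounds over 13 h in 3.26% and 1.69%. Stat5b over IgG was higher in 2.26%, 6.29% and 3.95% at 8 h, 13 h and 2 rounds, and Stat5a over IgG in 6.79%, 3.07% and 6.37%. For ratios to IgG this scaling removes the excess that peaks share, so lower shares follow from the scaling itself. Stat5b over Stat5a was higher in 0.69%, 0.537% and 0.384% and lower in 0.806%, 0.23% and 3.34% at these stages.

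With each start and strand counted once, 17 percents moved. Stat5b 13 h over 8 h was higher in 4.56%, against 1.13% of all merged regions. Stat5b 2 rounds over 13 h was higher in 10.8% and lower in 0%, against 14.8% and 0.0663% of all. Stat5a 13 h over 8 h was higher in 0% and lower in 0.384%, against 0.00685% and 0.555% of all. Stat5a 2 rounds over 13 h was higher in 2.72% and lower in 0.384%, against 2.56% and 0.0594% of all. Stat5b over IgG was higher in 4.14% at 8 h, against 1.32% of all. Stat5a over IgG was higher in 29.8%, 16.8% and 19.4% at the 3 stages, against 5.12%, 3.74% and 6.51% of all. Stat5b over Stat5a was higher in 0% and lower in 2.57% at 8 h, against 0.0023% and 0.877% of all. At 13 h it was higher in 0.153% and lower in 0%, against 0.151% and 0.0251%. After 2 rounds it was higher in 11.5% and lower in 0%, against 7.03% and 0.0274%. With 25 bp reads alone, Stat5a 13 h over 8 h was higher in 0.269% and lower in 0.844%, and 2 rounds over 13 h in 3.03% and 2.92%. Stat5b over IgG after 2 rounds was then higher in 38.3% and Stat5a over IgG in 12.1%, Stat5b over Stat5a was higher in 0.729% at 13 h and lower in 0.115% after 2 rounds; these fits hold fewer reads.

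With the upper 50% of each list, 1439 regions met the rule. Stat5a 2 rounds over 13 h was lower in 0.347%, Stat5b in 0.208%, Stat5b over IgG at 8 h was higher in 19.7% and Stat5b over Stat5a after 2 rounds lower in 0%. With 50% reciprocal overlap 2570 regions met the rule. Stat5a 13 h over 8 h was then higher in 0%, Stat5b 2 rounds over 13 h lower in 0.156%, Stat5b over IgG at 8 h higher in 22.3%, Stat5a over IgG higher in 50.5% at 13 h and 55.0% after 2 rounds, and Stat5b over Stat5a higher in 0% at 8 h and lower in 0.0389% at 13 h. Leaving out the Stat5b 8 h list gave 1394 regions. That count also drops the 727 regions that are in all of the other lists. Joining within 100 bp gave 2619 regions. Over all 2607 regions the IgG strand distance was 26.5, 25 and 23.0 bp, and without high-IgG regions 11.25, 10.75 and 11.0 bp; no percent moved without them. A search for the STAT motif was not run. No paired analysis was possible because each antibody and stage has 1 library, and for the same reason no replicate could be left out. Depth limits single regions, with median reads per region between 14 (both antibodies at 8 h) and 59 (Stat5b after 2 rounds).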
